A study of Mus musculus with 8 samples.

Results

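The genes described here are 9 genes of the response to double-stranded RNA and of the interferon system: Ifih1, Ddx58, Tlr3, Eif2ak2, Mavs, Irf3, Stat2, Isg15 and Ifitm1. They were chosen by name, as a check of an innate response to transfected RNA in embryonic stem cells, and make up 9 of the 55421 gene identifiers in the count table. Double-stranded RNA in the cytosol, as viruses make it, is bound by the helicases encoded by Ifih1 (MDA5) and Ddx58 (RIG-I), which signal through the mitochondrial adaptor Mavs to the transcription factor Irf3 and so to the interferon genes. Tlr3 senses such RNA in endosomes, and Eif2ak2 encodes PKR, a kinase that halts translation by phosphorylating eIF2 alpha. Secreted interferon acts through Stat2, with Irf9, on interferon-stimulated genes such as Isg15. Embryonic stem cells are known for a weak interferon response compared with differentiated cells.

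The cells were E14 mouse embryonic stem cells of 129/Ola background in which the microRNA cluster miR-290-295 is knocked out, grown with serum and LIF on gelatin. All 4 groups carry this knockout, and all received a siPOOL by lipid transfection, that is, many small interfering RNAs pooled, at 5 nM for 36 h. The groups are siTfap4, siWiz and siZic2, each aimed at the mRNA of 1 transcription factor, and the negative control siNeg, with 2 libraries each that the series design calls biological duplicates. The groups used here include no untransfected cells, so a response to transfection shared by all 4 groups cannot be told apart from the level in untreated cells. The labels do not say how many knockout clones were used.

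Poly(A) RNA was read from transcript ends (QuantSeq 3' FWD), with 8326675 to 13788856 counted reads per library, the 2 lowest totals being those of siTfap4. Each level is in CPM, with library totals adjusted by TMM factors and no division by length, given as mean ± SD over 2 libraries. A call means an adjusted p under 0.05 by edgeR's quasi-likelihood test over the 14647 genes that passed the expression filter. Tfap4 itself held 13.9 CPM in siTfap4 against 35.3 CPM in siNeg (39.4%, adjusted p = 0.00417). Wiz held 18.2 CPM in siWiz against 48.0 CPM in siNeg (38.0%, adjusted p = 0.708). Zic2 held 1.99 CPM in siZic2 against 3.35 CPM in siNeg (59.5%, adjusted p = 1.00). It also held 2.30 CPM in siWiz and 5.80 CPM in siTfap4, so a level below siNeg was not particular to siZic2. The summed level of 10 embryonic stem cell markers was 3487 to 3531 CPM in siTfap4, 3494 to 3702 CPM in siWiz, 3785 to 3899 CPM in siZic2 and 3729 to 3867 CPM in siNeg, and all 10 passed the filter. Summed fibroblast markers reached at most 13.7 CPM and summed leukocyte markers at most 21.5 CPM in any library, with 2 of 10 passing the filter in each list and Postn and Adgre1 at 0 counts throughout. Summed trophoblast markers held 164 to 287 CPM in siTfap4, 153 to 225 CPM in siWiz, 157 to 232 CPM in siZic2 and 201 to 275 CPM in siNeg. Outside siTfap4, most of this sum was Tfap2c, which averaged 170 CPM in siWiz, 174 CPM in siZic2 and 215 CPM in siNeg. Cdx2, Elf5 and Hand1 did not pass the filter, and 0 of the 5 tested were called in siTfap4 against siNeg. Summed primitive endoderm markers held 36.2 to 55.3 CPM in siTfap4, 26.8 to 37.4 CPM in siWiz, 23.1 to 37.6 CPM in siZic2 and 29.0 to 38.5 CPM in siNeg. Of the 7 tested 1, Sox7, was called and lower in siTfap4 against siNeg (log2 fold change -2.20, edgeR adjusted p = 0.0440), while DESeq2 called 0. With 1 library left out in turn, the Sox7 log2 fold change ranged from -2.95 to -1.73. In that comparison 15.9% of all tested genes were called.

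The starts of the 9 genes were searched for the letters of the DNA element that interferon signalling is known to read. The core of the interferon-stimulated response element, which reads GAAA, any 2 bases and GAAA on either strand, occurred in the 300 bases around the start (250 before, 50 after) of 5 of the 9 genes, Ifih1, Ddx58, Eif2ak2, Stat2 and Isg15, against 3.44% of 32851 promoters in the RefSeq table (GRCm38.p6). The core of the gamma-activated site, TTCNNNGAA, occurred in Eif2ak2 alone, against 8.3% of promoters. The E-box CAGCTG, a sequence Tfap4 is known to bind, occurred in Ddx58 and Stat2, against 16.3% of promoters. A match is a run of letters and says nothing of binding in these cells. Isg15, the classic interferon target, is shown because its 3 overlapping cores, in capitals, lie between bases -78 and -57 from the start, and Ifitm1, a target at a high level here, is shown for contrast because neither core nor E-box matched. The bases before the start are chr4:156200819-156201068 (minus strand) for Isg15 and chr7:140967826-140968075 (plus strand) for Ifitm1, whose RefSeq start lies inside the GENCODE gene.
Isg15: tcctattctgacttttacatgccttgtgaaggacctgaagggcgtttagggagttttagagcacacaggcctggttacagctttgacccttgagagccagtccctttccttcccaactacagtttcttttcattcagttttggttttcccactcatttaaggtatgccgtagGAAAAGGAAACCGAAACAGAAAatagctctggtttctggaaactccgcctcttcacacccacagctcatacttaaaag
Ifitm1: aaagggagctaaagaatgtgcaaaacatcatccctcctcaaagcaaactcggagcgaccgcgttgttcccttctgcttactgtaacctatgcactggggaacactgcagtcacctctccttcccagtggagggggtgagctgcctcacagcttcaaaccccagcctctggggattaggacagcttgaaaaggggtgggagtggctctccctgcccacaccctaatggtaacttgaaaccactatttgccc
For the other 4 genes, 30 bases with the core in capitals are shown, at chr4:40239804-40239833 (minus strand) for Ddx58, chr2:62646206-62646235 (minus strand) for Ifih1, chr17:78882535-78882564 (minus strand) for Eif2ak2 and chr10:128270266-128270295 (plus strand) for Stat2. The Ddx58 and Stat2 cores read on the opposite strand to the gene.
Ddx58: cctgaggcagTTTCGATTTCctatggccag
Ifih1: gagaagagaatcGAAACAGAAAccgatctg
Eif2ak2: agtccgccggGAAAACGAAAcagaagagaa
Stat2: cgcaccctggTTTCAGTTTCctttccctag

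Ddx58 and Ifih1, the genes of the 2 cytosolic helicase sensors, differed in what could be measured. Ddx58 (ENSMUSG00000040296, GRCm38 chr4:40203773-40239828, minus strand) held 71.7 and 45.8 CPM in the siTfap4 libraries, 32.9 and 21.7 CPM in siWiz, 37.9 and 28.5 CPM in siZic2, and 40.3 and 32.8 CPM in siNeg. Both siTfap4 libraries lay above the other 6, although replicate 1 was well above replicate 2, and the remaining groups overlapped each other. Ddx58 averaged 58.8 ± 18.3 CPM in siTfap4 and 36.5 ± 5.34 CPM in siNeg (SD, n = 2 each), a log2 fold change of 0.68 (95% interval 0.06 to 1.31) that was not called (edgeR adjusted p = 0.124). With each of the 8 libraries left out in turn it was lowest without siTfap4 replicate 1, at 0.32 (edgeR adjusted p = 0.626). It was highest without siTfap4 replicate 2, at 0.96, the 1 refit of the 8 in which it was called (edgeR adjusted p = 0.0385). siWiz averaged 27.3 ± 7.94 CPM (log2 fold change -0.42, interval -1.05 to 0.21) and siZic2 33.2 ± 6.65 CPM (-0.14, interval -0.76 to 0.49) against the same siNeg libraries.

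Set against siWiz, Ddx58 was 2.15-fold higher in siTfap4 (log2 fold change 1.10 ± 0.30 SE, interval 0.47 to 1.74, edgeR adjusted p = 0.0247), and this was the only call among the 7 tested genes in that comparison. In bulk RNA, a change in how many cells express a gene and a change in its RNA per cell cannot be told apart. The call was lost without siTfap4 replicate 1 (log2 fold change 0.74, adjusted p = 0.237), siWiz replicate 1 (1.44, adjusted p = 0.0530) or siWiz replicate 2 (0.83, adjusted p = 0.148). Set against siZic2 the log2 fold change was 0.82 (interval 0.19 to 1.45), with an edgeR adjusted p of 0.0575. That difference lay close to the threshold. It was called by DESeq2 (adjusted p = 0.0459), and by edgeR without a filter (0.0398), with protein-coding genes alone (0.0497) and with the replicate number as a block (0.0139). By edgeR it was not called with library totals as the scaling (0.101), with RLE factors (0.0572), in a fit of the compared groups alone (0.0705) or with a filter at a mean of 5 CPM (0.0511). With 1 library left out in turn, its log2 fold change ranged from 0.45 without siTfap4 replicate 1 to 1.10 without siTfap4 replicate 2. The E-box in the Ddx58 promoter, in capitals below, stood 238 bases before the start, in chr4:40239826-40240075 (minus strand).
Ddx58: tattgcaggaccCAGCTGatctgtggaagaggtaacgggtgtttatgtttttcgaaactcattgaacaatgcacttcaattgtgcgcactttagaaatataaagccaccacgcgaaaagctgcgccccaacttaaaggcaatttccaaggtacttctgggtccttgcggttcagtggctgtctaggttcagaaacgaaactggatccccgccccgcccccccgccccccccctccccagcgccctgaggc

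Ifih1 (ENSMUSG00000026896, chr2:62595798-62646255, minus strand) was at the edge of detection, with 17 counts over all 8 libraries. The siTfap4 libraries held 1 and 5 counts, those of siWiz 4 and 3, those of siZic2 0 and 3, and those of siNeg 1 and 0, so it did not pass the filter. With 6 counts in siTfap4 and 1 in siNeg, the depth-scaled ratio was 8.11 with a counting interval of 0.984 to 373 (95%), with 7 counts in siWiz it was 7.24 (0.930 to 326), and with 3 in siZic2 it was 2.84 (0.228 to 149). All 3 intervals reach below 1, so no difference in Ifih1 was detectable at this depth, where 3 counts correspond to 0.208 to 0.372 CPM per library. These intervals cover counting error only.

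Tlr3 (ENSMUSG00000031639, chr8:45395665-45411080, minus strand), the endosomal receptor, was also low. It held 13 and 10 counts (1.61 and 1.17 CPM) in siTfap4, 8 and 9 counts (0.713 and 0.859 CPM) in siWiz, 11 and 5 counts (0.762 and 0.538 CPM) in siZic2, and 8 and 7 counts (0.665 and 0.673 CPM) in siNeg. Both siTfap4 libraries were above all others, and the siTfap4 libraries are also the ones that carried this gene past the filter. The log2 fold change of siTfap4 over siNeg was 1.04 with an interval of -0.36 to 2.45 (edgeR adjusted p = 0.288), so the size of any difference remained unresolved. The transcript ends overlap a gene model on the other strand, Gm45542, and whether reads were counted by strand is not given in the sources used here.

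Eif2ak2 (ENSMUSG00000024079, chr17:78852564-78882573, minus strand), whose product PKR is both a sensor and an interferon target, had group means between 17.1 and 19.0 CPM. It held 17.7 and 16.9 CPM in siTfap4, 18.5 and 19.4 CPM in siWiz, 16.8 and 20.2 CPM in siZic2, and 17.0 and 17.2 CPM in siNeg. The siTfap4 and siNeg libraries interleaved, and both siWiz libraries stood a little above siNeg. The log2 fold change was 0.02 for siTfap4 (interval -0.51 to 0.55), 0.15 for siWiz (-0.37 to 0.67) and 0.11 for siZic2 (-0.41 to 0.64) over siNeg. Differences within these intervals cannot be told from none. The siTfap4 estimate changed sign, to -0.04, when libraries were scaled by totals alone.

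Mavs (ENSMUSG00000037523, chr2:131234063-131248025, plus strand), the adaptor on which both helicases converge, was lowest in siTfap4. It held 40.7 and 58.9 CPM in siTfap4, 53.8 and 67.0 CPM in siWiz, 62.0 and 66.5 CPM in siZic2, and 63.0 and 62.3 CPM in siNeg. Both siTfap4 libraries lay below both siNeg libraries, with replicate 1 well under replicate 2, and siTfap4 overlapped siWiz. The log2 fold change of siTfap4 over siNeg was -0.33 (interval -0.85 to 0.19, edgeR adjusted p = 0.366), that of siWiz -0.05 and that of siZic2 0.04. The Mavs estimate thus ran opposite to that of Ddx58 in siTfap4, and neither was called.

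**Figure D1:**
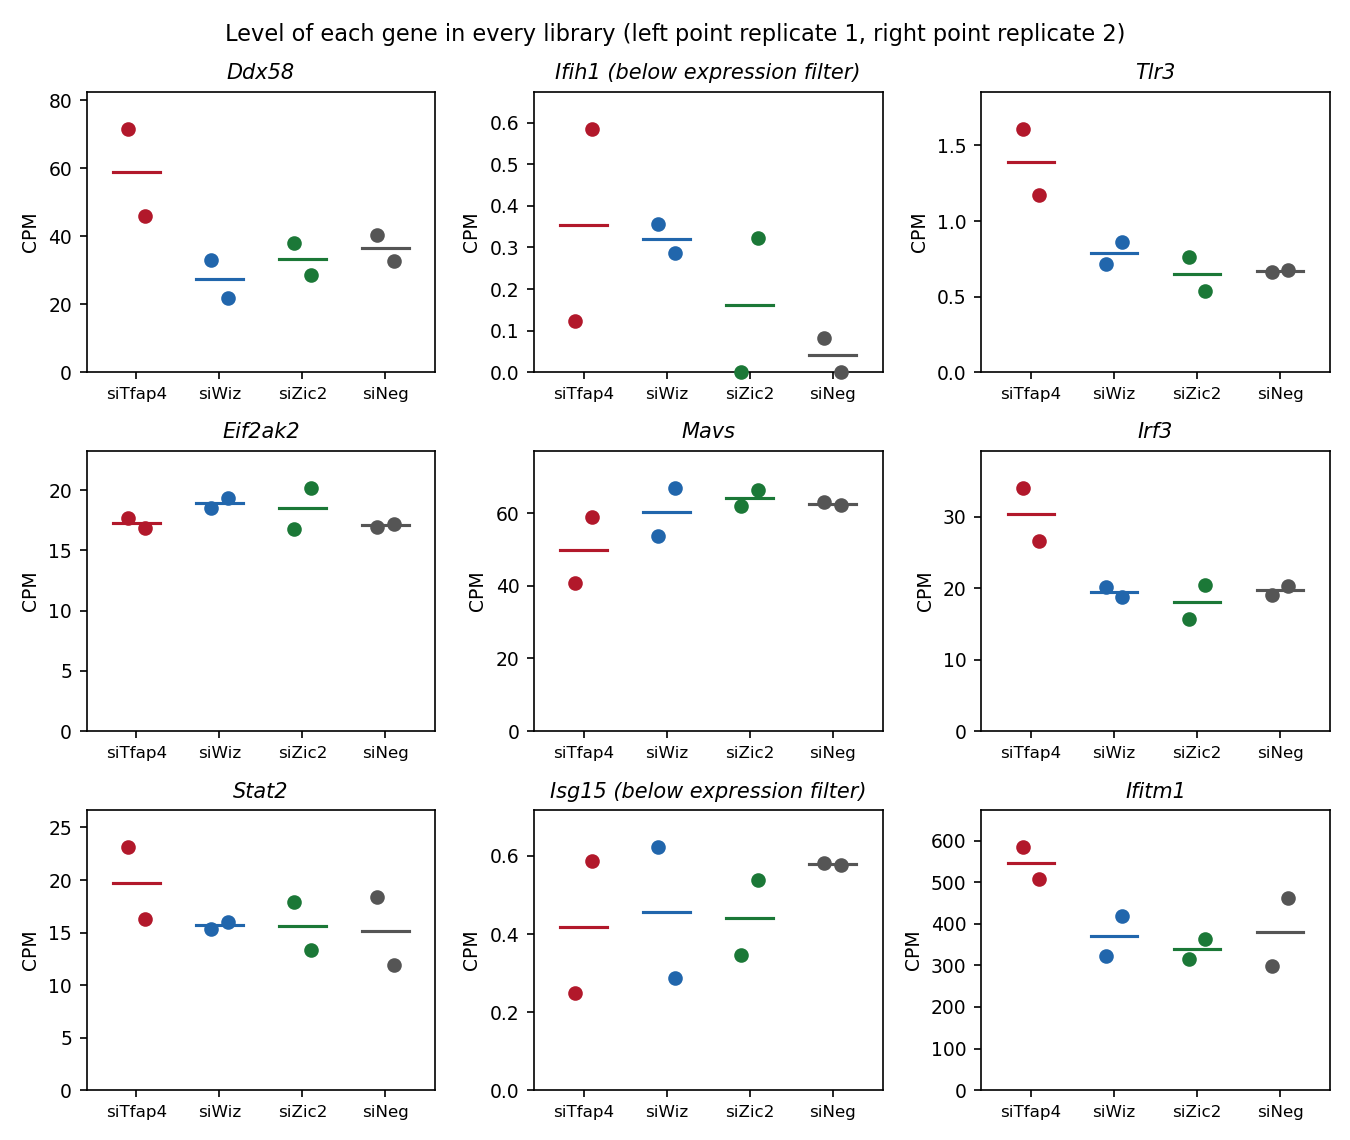
Level of each of the 9 genes in CPM (linear axis from 0) in the 2 libraries of siTfap4, siWiz, siZic2 and siNeg, with a bar at each group mean. Ddx58, Tlr3, Irf3 and Ifitm1 were higher in both siTfap4 libraries than in both siNeg libraries, as were 29.6% of all tested genes. Mavs was lower, as were 29.5%, and edgeR called 0 of the 7 tested in this comparison. Tlr3 passed the filter through its siTfap4 level. Ifih1 and Isg15 stayed under 0.7 CPM in every library.

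Irf3 (ENSMUSG00000003184, chr7:44997648-45002848, plus strand), the factor that the adaptors activate, was highest in siTfap4. It held 34.1 and 26.6 CPM in siTfap4, 20.2 and 18.8 CPM in siWiz, 15.7 and 20.4 CPM in siZic2, and 19.1 and 20.4 CPM in siNeg. Both siTfap4 libraries were above the other 6, which overlapped one another. Irf3 averaged 30.4 ± 5.29 CPM in siTfap4 and 19.7 ± 0.886 CPM in siNeg (SD, n = 2 each), a log2 fold change of 0.62 (interval 0.07 to 1.17) that was not called (edgeR adjusted p = 0.111). Over siZic2, which averaged 18.0 ± 3.38 CPM, it was called at 1.69-fold (log2 fold change 0.75 ± 0.26 SE, interval 0.20 to 1.30, edgeR adjusted p = 0.0476). That call was lost without any 1 of the 8 libraries except siTfap4 replicate 2, with adjusted p between 0.0548 and 0.361, and also in a fit of the compared groups alone (0.0742), with library totals as the scaling (0.0702), without a filter (0.0960) and by DESeq2 (0.0504). Over siWiz, at 19.5 ± 0.948 CPM, the log2 fold change was 0.64 (adjusted p = 0.103).

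Stat2 (ENSMUSG00000040033, chr10:128270559-128292849, plus strand), a subunit of the complex that type I interferon activates, showed as much spread within groups as between them. It held 23.2 and 16.3 CPM in siTfap4, 15.3 and 16.0 CPM in siWiz, 17.9 and 13.3 CPM in siZic2, and 18.4 and 11.9 CPM in siNeg. The higher siNeg library exceeded every library except siTfap4 replicate 1, and the lower siNeg library was the lowest of all 8. The log2 fold change over siNeg was 0.38 in siTfap4 (interval -0.26 to 1.02), 0.05 in siWiz (-0.59 to 0.69) and 0.05 in siZic2 (-0.59 to 0.68), and none was called.

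Isg15 (ENSMUSG00000035692, chr4:156199424-156200818, minus strand) encodes a ubiquitin-like protein that is among the first and most strongly induced products of interferon signalling. It held 2 and 5 counts in the siTfap4 libraries, 7 and 3 in those of siWiz, 5 and 5 in those of siZic2, and 7 and 6 in those of siNeg, 40 in all, and did not pass the filter. All 4 groups averaged between 0.417 and 0.579 CPM, and siNeg had the highest mean. The depth-scaled ratio to siNeg was 0.728 in siTfap4 (counting interval 0.246 to 1.96), 0.796 in siWiz (0.312 to 1.96) and 0.727 in siZic2 (0.286 to 1.80). All 3 intervals include 1. They cover counting error only and not the spread between libraries, so they do not bound the difference between groups. Counts stayed in single digits in every library although the promoter shown above holds 3 cores. Of 251 windows of 50 bases in its transcript end, 3 also occur in the gene AC151275.1, and reads from these could be split.

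Ifitm1 (ENSMUSG00000025491, chr7:140967221-140969825, plus strand), a membrane protein that blocks virus entry and that mouse embryonic stem cells are known to express without interferon, gave 3381 to 4820 counts per library. It held 586 and 507 CPM in siTfap4, 321 and 418 CPM in siWiz, 315 and 364 CPM in siZic2, and 298 and 463 CPM in siNeg. Both siTfap4 libraries were above all 6 others, while the siNeg pair spanned the range of siWiz and siZic2. Ifitm1 averaged 546 ± 55.8 CPM in siTfap4 and 380 ± 117 CPM in siNeg (SD, n = 2 each), a log2 fold change of 0.52 (interval -0.04 to 1.09, edgeR adjusted p = 0.186). Over siZic2, at 339 ± 34.3 CPM, it was 0.69 (interval 0.12 to 1.25, edgeR adjusted p = 0.0742), and DESeq2 called that difference (adjusted p = 0.0485). None of its 251 end windows occurred in another gene, Ifitm2 and Ifitm3 included.

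Counted together, 7 of the 9 genes were tested, and the comparisons with siNeg share its 2 libraries. In siTfap4 against siNeg, 0 of 7 were called by edgeR, where 15.9% of all tested genes were called, 2 (Ddx58 and Irf3) had an unadjusted p under 0.05, where 32.4% of all genes did, and DESeq2 called 0, where it called 18.4% of genes. The 2 libraries of each group did not overlap for 4 genes that were higher in siTfap4 (29.6% of all genes) and for 1 that was lower (29.5%). Of the 4, Tlr3 passed the filter through its siTfap4 level, which fixed its direction, and without it 3 of 6 were higher and 1 was lower. In siWiz against siNeg, 0 of 7 were called, as were 0% of all genes, 0 had an unadjusted p under 0.05 (1.82% of all genes) and DESeq2 called 0 (0.00371%), while Eif2ak2 and Tlr3 did not overlap on the higher side (12.3%). In siZic2 against siNeg, 0 of 7 were called (0% of all genes), 0 had an unadjusted p under 0.05 (0.587%) and DESeq2 called 0 (0%). Without Tlr3, the median log2 fold change of the 6 other genes was 0.45 in siTfap4, -0.03 in siWiz and -0.05 in siZic2, beside 0.01, -0.00 and -0.00 for all tested genes.

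Between siPOOLs, 1 of 7 was called in siTfap4 against siWiz (Ddx58), where 15.1% of all genes were, and 1 of 7 in siTfap4 against siZic2 (Irf3), where 23.1% were. An unadjusted p under 0.05 was reached by 2 against siWiz (31.6% of all genes) and 3 against siZic2 (37.6%). DESeq2 called 1 of 6 against siWiz (18.3% of all genes) and 2 of 6 against siZic2 (25.4%), which were Ddx58 and Ifitm1 and not Irf3. In siWiz against siZic2, edgeR called 0 of 7 (0% of all genes), 0 had an unadjusted p under 0.05 (2.62%) and DESeq2 called 0 (0%).

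**Figure D2:**
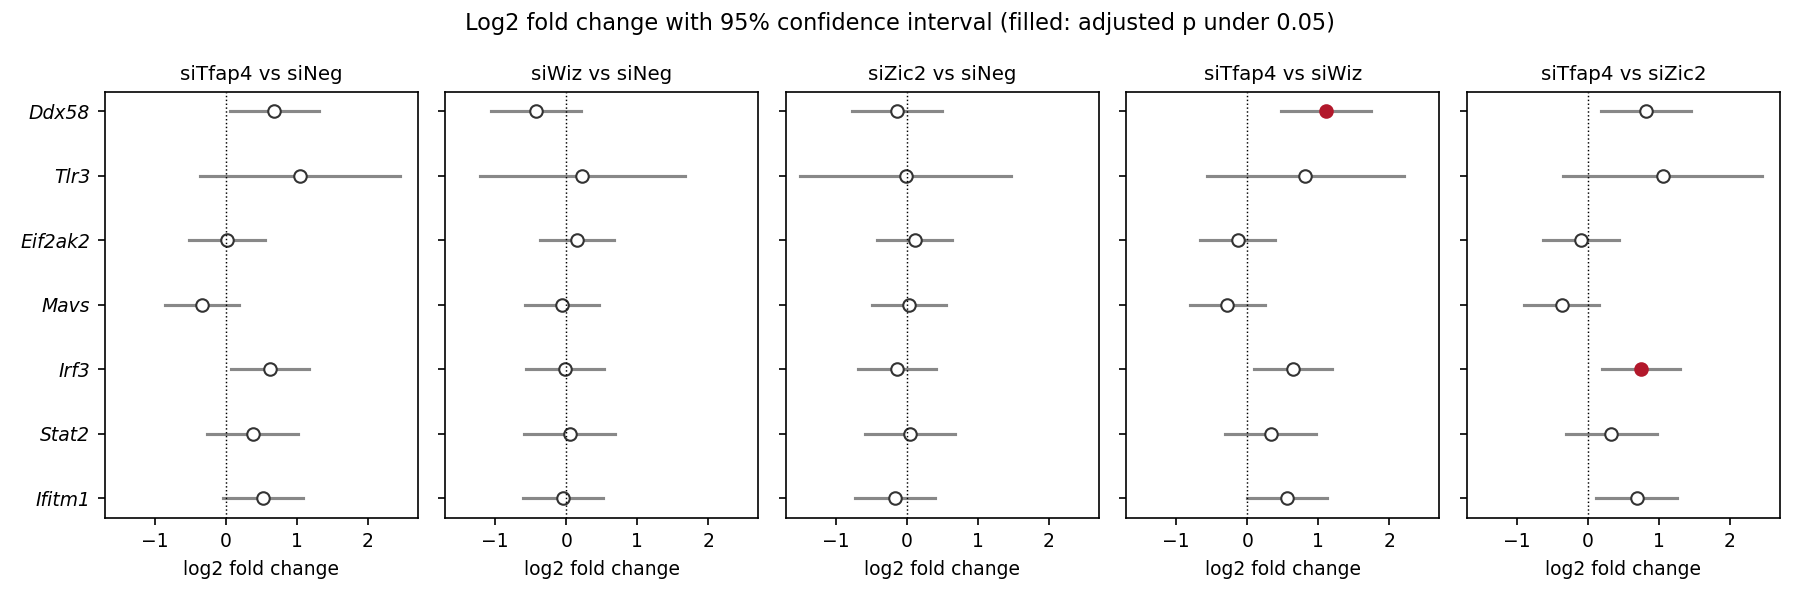
Log2 fold change (points) with 95% confidence interval (lines) of the 7 tested genes in 5 comparisons, with filled points where the adjusted p was under 0.05. Only Ddx58 in siTfap4 vs siWiz (1.10) and Irf3 in siTfap4 vs siZic2 (0.75) are filled, and every interval in the siWiz and siZic2 comparisons with siNeg includes 0.

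The interferon genes themselves were not detected. All 10 listed, Ifnb1, Ifna1, Ifna2, Ifna4, Ifna5, Ifnk, Ifne, Ifnl2, Ifnl3 and Ifng, had 0 counts in all 8 libraries, which allows a level of up to 0.208 to 0.372 CPM per library. The Ifna genes are near-identical copies, so reads shared among them may not have been counted, whereas Ifnb1 is a single gene. Irf7, the factor that amplifies the interferon response, and Tlr7, an endosomal sensor of single-stranded RNA, also had 0 counts throughout. Of 56 interferon-stimulated genes, 26 did not pass the filter and 6 of these (Ifit3, Mx1, Ifi44, Slfn2, Sp100 and Usp18) had 0 counts in every library. Cxcl10, a chemokine among those below the filter, had 7 counts over all libraries, of which 0 were in siTfap4 and 3 in siNeg. The 30 genes that passed include Rsad2 and Bst2, which averaged 3.17 and 4.49 CPM in siNeg.

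**Figure D3:**
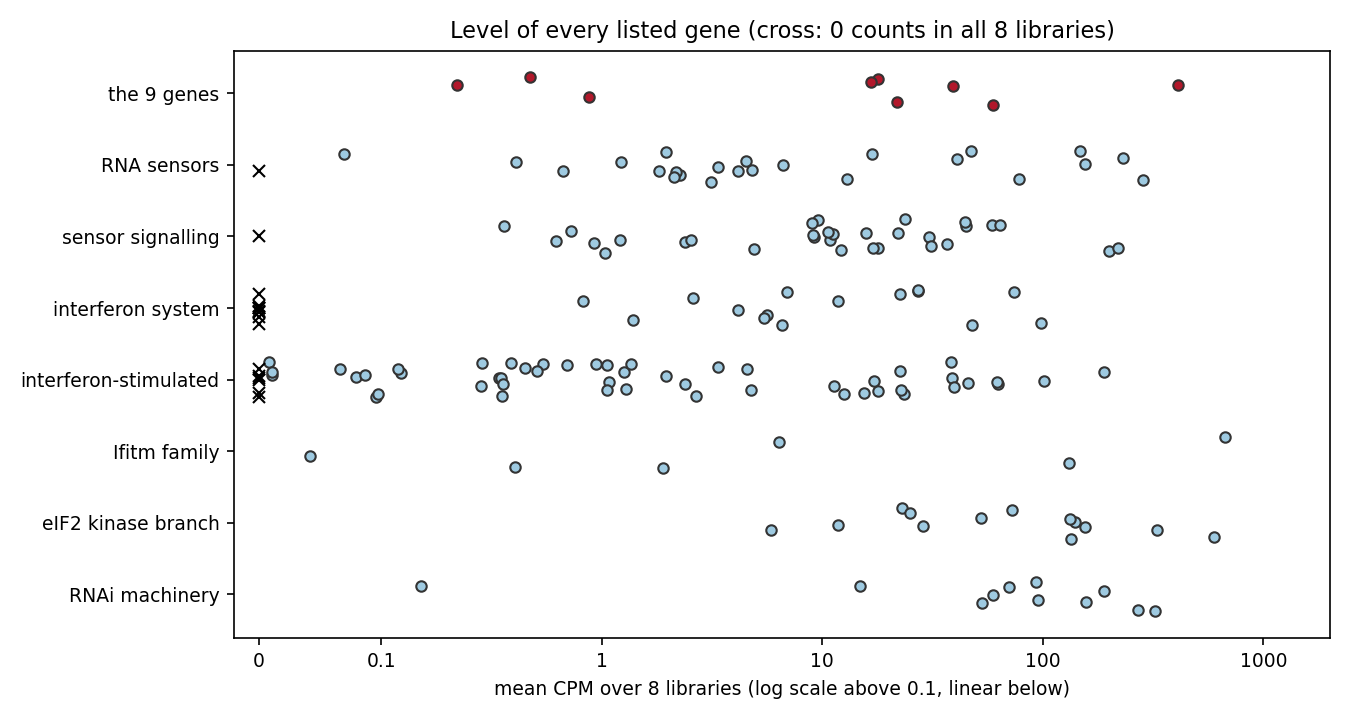
Mean CPM over the 8 libraries of every listed gene (points, log axis above 0.1 and linear below), with crosses for genes at 0 counts in all libraries, for the 9 genes and 7 lists of related genes. The interferon system list holds 10 crosses, which are the interferon genes, and the interferon-stimulated list holds 6.

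Receptor genes were present. Ifnar1, a chain of the type I interferon receptor, held 6.94 and 5.74 CPM in siTfap4 and 7.81 and 5.67 CPM in siNeg, so the groups overlapped. Of the 25 genes of the interferon system 15 were tested, and in siTfap4 0 rose and 3 fell, where 4.24% of all tested genes rose and 11.7% fell. Ifnlr1, the specific chain of the lambda interferon receptor, held 1.49 and 2.11 CPM in siTfap4 and 9.73 and 9.13 CPM in siNeg (log2 fold change -2.38 ± 0.37 SE, edgeR adjusted p = 0.00169). Ifngr2, a chain of the gamma interferon receptor, held 1.12 and 1.76 CPM in siTfap4 and 5.82 and 5.38 CPM in siNeg (-1.95, adjusted p = 0.00886). Socs1, an inhibitor of JAK kinases, held 0.372 and 0.234 CPM in siTfap4 and 2.24 and 1.63 CPM in siNeg (-2.64, adjusted p = 0.0260). Both siTfap4 values of Socs1 lay at or below the level of 3 counts (0.372 and 0.352 CPM). The median of the list was -0.09.

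Of 21 tested RNA sensors and their partners, 0 rose and 2 fell in siTfap4, with a median of -0.02. Over all tested genes, 4.24% rose and 11.7% fell in this comparison. Dhx36, a helicase of RNA G-quadruplexes, held 75.8 and 87.0 CPM in siTfap4 and 215 and 149 CPM in siNeg (log2 fold change -1.16 ± 0.27 SE, adjusted p = 0.0125). Unc93b1, the chaperone that carries nucleic acid-sensing Toll-like receptors to endosomes, held 0.124 and 0.821 CPM in siTfap4 and 2.49 and 1.83 CPM in siNeg (-2.15, adjusted p = 0.0481). In siTfap4 replicate 1 Unc93b1 lay below the level of 3 counts (0.372 CPM). Of 28 tested genes of sensor signalling, 0 rose and 5 fell, beside the same shares of all tested genes, with a median of 0.01. Tank, a scaffold of the kinase Tbk1, held 4.09 and 4.57 CPM in siTfap4 and 14.7 and 12.4 CPM in siNeg (-1.64 ± 0.29 SE, adjusted p = 0.00312), and Chuk, an IkappaB kinase, held 12.4 and 17.6 CPM in siTfap4 and 70.9 and 37.5 CPM in siNeg (-1.85, adjusted p = 0.00510). Nfkb1, an NF-kappaB subunit, fell by 1.39 and Trim32, a ubiquitin ligase, by 1.12 on the log2 scale, and the fifth was Nfkbia, an NF-kappaB inhibitor (-0.98, adjusted p = 0.0337).

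Among 30 tested interferon-stimulated genes, 2 rose and 1 fell in siTfap4, beside 4.24% and 11.7% of all tested genes, with a median of 0.18. Tapbp, a chaperone of peptide loading onto MHC class I, held 78.0 and 50.1 CPM in siTfap4 and 27.1 and 35.7 CPM in siNeg (log2 fold change 1.03 ± 0.26 SE, adjusted p = 0.0217). Parp14, an ADP-ribosyltransferase, held 28.9 and 21.5 CPM in siTfap4 and 14.5 and 13.0 CPM in siNeg (0.87, adjusted p = 0.0376). Xaf1, a pro-apoptotic gene, held 10.5 and 7.15 CPM in siTfap4 and 29.9 and 19.5 CPM in siNeg (-1.48, adjusted p = 0.0159). The summed level of the 56 genes was 765 to 859 CPM in siTfap4, 719 to 732 CPM in siWiz, 704 to 756 CPM in siZic2 and 719 to 774 CPM in siNeg, so siTfap4 and siNeg overlapped. Genes at high levels weigh most in this sum, such as Pml (178 CPM in siNeg), Daxx (113 CPM) and Irf1 (67.0 CPM). It therefore says little of genes at low levels.

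The relatives of Ifitm1 gave 1 call, on the higher side, among the 4 tested, where 4.24% of all tested genes rose. Ifitm2 held 256 and 182 CPM in siTfap4 and 105 and 105 CPM in siNeg (log2 fold change 1.06 ± 0.27 SE, 2.09-fold, adjusted p = 0.0203). Ifitm3 held 994 and 834 CPM in siTfap4 against 540 and 706 CPM in siNeg without overlap (0.55, adjusted p = 0.144), and the 4 tested relatives had a median of 0.42. Only Ifitm1 was checked for shared transcript-end sequence, so reads of the relatives may be split among copies.

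Around Eif2ak2, all 13 genes of the eIF2 kinase branch were tested, and 3 rose and 2 fell in siTfap4 (median -0.07), beside 4.24% and 11.7% of all tested genes. Atf4, the transcription factor translated when eIF2 alpha is phosphorylated, held 1105 and 780.0 CPM in siTfap4 and 491 and 562 CPM in siNeg (log2 fold change 0.84, adjusted p = 0.0422). With each of the 8 libraries left out in turn, the Atf4 fold change ranged between 0.56 and 1.06 on the log2 scale and was called in 1 refit, with adjusted p up to 0.293. Ddit3, its target encoding CHOP, held 60.0 and 33.4 CPM in siTfap4 and 19.4 and 17.5 CPM in siNeg (1.34, adjusted p = 0.0106), and Chac1, a glutathione-degrading enzyme downstream of Atf4, was the third (0.76, adjusted p = 0.0450). Ppp1r15b and Ppp1r15a, the subunits that direct a phosphatase to eIF2 alpha, fell by 1.40 and 1.42 on the log2 scale (adjusted p = 0.00273 and 0.00467). In the RNA interference machinery 10 genes were tested, and 0 rose and 1 fell, beside the same shares of all tested genes. The gene that fell was Xpo5, the exporter of microRNA precursors. It held 40.8 and 51.0 CPM in siTfap4 and 95.1 and 128 CPM in siNeg (-1.28, adjusted p = 0.00459).

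**Figure D4:**
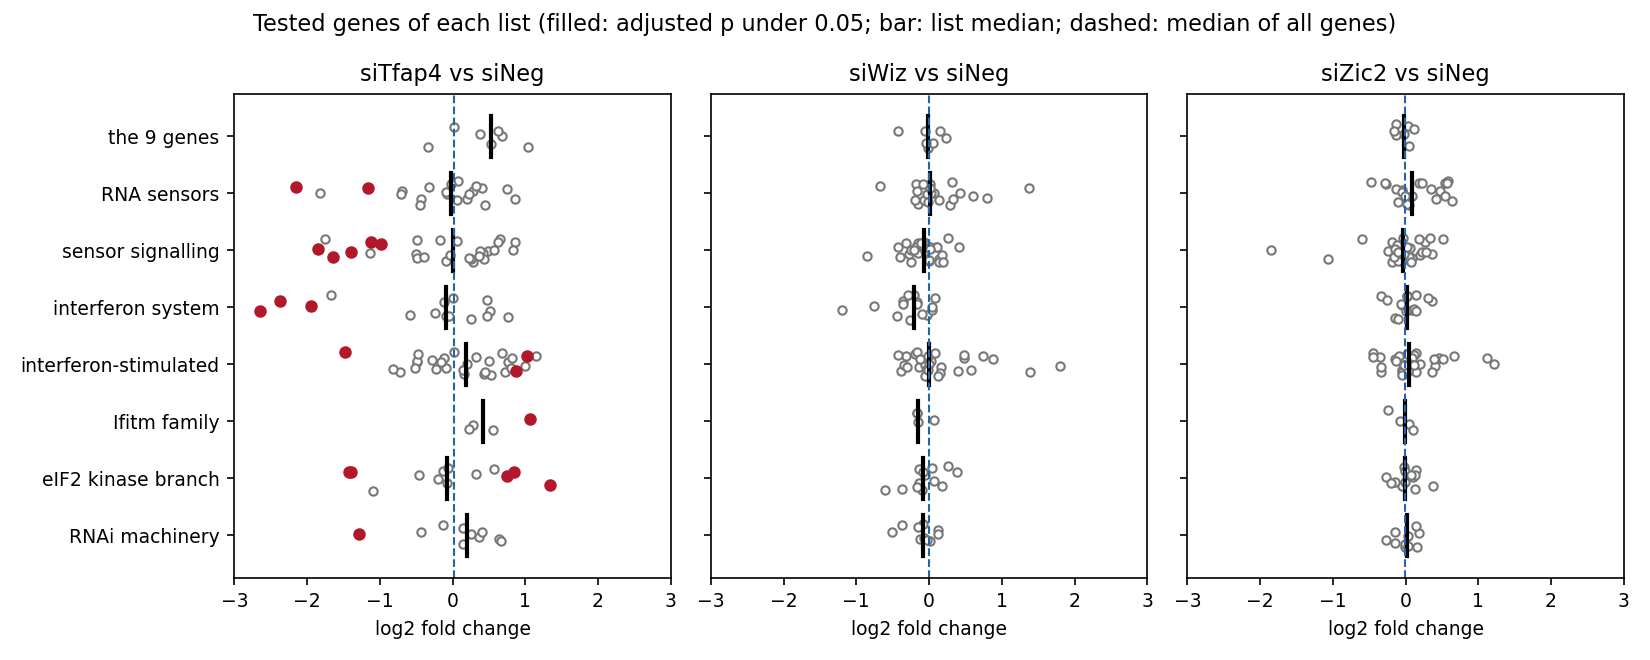
Log2 fold change of every tested gene of the 9 genes and of 7 related lists over siNeg in siTfap4, siWiz and siZic2 (filled points, adjusted p under 0.05), with a bar at each list median (Tlr3 included for the 9 genes) and a dashed line at the median of all tested genes. Filled points occur in siTfap4 alone, on both sides of 0, and siWiz and siZic2 hold none in any list.

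Of the 18 genes called by edgeR in these lists and named by rule, 5 (Tank, Ifnlr1, Ppp1r15a, Ppp1r15b and Xpo5) stayed called with each of the 8 libraries left out in turn. Without siTfap4 replicate 1, 12 lost the call, with adjusted p between 0.0612 and 0.303, and without siNeg replicate 1, 12 did, between 0.0516 and 0.205. Unc93b1 moved most, with a log2 fold change of -1.40 without siTfap4 replicate 1 and -4.02 without siTfap4 replicate 2. Over all genes, leaving out siTfap4 replicate 1 reduced the calls of this comparison to 504, against 2330 with all libraries, and leaving out siNeg replicate 1 reduced them to 757. Of the 10 tested markers of the stem cell state, 2 were higher in siTfap4, 1 was lower and 7 were not called. Their median log2 fold change was 0.06. Over all tested genes, 4.24% were called higher and 11.7% lower. Nanog held 77.6 and 178 CPM in siTfap4 against 399 and 314 CPM in siNeg (edgeR adjusted p = 0.0142), and Pou5f1 held 57.4 and 48.1 CPM in siTfap4 against 24.4 and 27.5 CPM in siNeg (0.0159). The part of these shifts, and of the lower depth of the siTfap4 libraries, in the differences above was not tested.

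In siWiz and siZic2 against siNeg, 0 genes of any of the 7 lists were called by edgeR or by DESeq2. At an unadjusted p under 0.05, 1 of 21 RNA sensors and 2 of 30 interferon-stimulated genes passed in siWiz, where 1.82% of all tested genes did. In siZic2 0 passed, where 0.587% of all tested genes did. In siWiz these were Tarbp2, a double-stranded RNA-binding partner of Dicer, with 4.01 and 3.53 CPM in siWiz and 0.998 and 1.92 CPM in siNeg, and Ifi27 and Irf8. Ifi27, a mitochondrial interferon-stimulated gene, held 1.52 and 2.29 CPM in siWiz and 0.416 and 0.673 CPM in siNeg, and Irf8, a factor best known from myeloid cells, held 1.87 and 1.91 CPM in siWiz and 0.665 and 0.769 CPM in siNeg. All 3 had an edgeR adjusted p of 1.00. For Ifi27 and Irf8, the siWiz libraries alone were enough to pass the filter, and the siNeg libraries were not. Their higher side in siWiz is thus not independent of the filter.
Tmem173, the gene of the DNA-sensing adaptor STING, averaged 1.58 ± 0.468 CPM in siWiz (log2 fold change -0.85), 1.33 ± 0.366 CPM in siZic2 (-1.06) and 2.84 ± 0.214 CPM in siNeg (SD, n = 2 each), with an edgeR adjusted p of 1.00 in both comparisons. In siZic2, Zbp1, a sensor of left-handed nucleic acid helices, averaged 4.85 ± 1.96 CPM against 3.19 ± 0.304 CPM in siNeg (edgeR adjusted p = 1.00).

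The profiles of the tested genes across the 8 libraries were set beside those of all genes with a mean of at least 5 CPM, as Pearson correlations of log2 CPM that share the same libraries and depths and are given as a description. Irf3 and Ifitm1 ran together at r = 0.83, and Ddx58 and Mavs in opposite directions at -0.83. Other pairs were weaker, such as Stat2 and Ifitm1 at 0.18 and Eif2ak2 and Irf3 at -0.06. Irf3 and Tlr3 gave 0.81, but Tlr3 passed the filter through its siTfap4 level, so its correlations are not independent of the filter. Among 10132 other genes the closest to Ddx58 were Slc12a9 (0.98) and Ccdc15 (0.98), to Irf3 Zfp954 (0.99) and Nupr1 (0.99), and to Ifitm1 Yars (0.997) and Ssbp4 (0.996). The closest to Mavs were Papolg (0.99) and Dnajc27 (0.98), and to Stat2 Ncapg2 (0.99) and Zcchc7 (0.98). Eif2ak2 had the least close neighbours, Pclaf (0.94) and Zfp825 (0.90), while Tlr3, among 10133 genes, was nearest to Akap8l (0.99) and Piga (0.99).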

How the data were processed

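Poly(A) RNA of 8 libraries in 4 groups was read from transcript ends. The authors deposited whole-number counts per Ensembl gene and library, without normalization. Per the submitters' processing notes, reads were trimmed with Trim Galore and the build was GRCm38. The aligner, counter, strand setting and molecular identifiers were not given in the sources used here. Of 55421 identifiers, 55240 matched a GENCODE M21 name and 181 did not.

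Genes were filtered with filterByExpr (14647 left), scaled by TMM and fitted with edgeR 4.0.16 (R 4.3.3), with 1 mean per group and all 8 libraries in 1 fit. The quasi-likelihood test was adjusted by Benjamini-Hochberg over all tested genes, with a threshold of 0.05. The biological coefficient of variation was 22.2%, with 4 residual and 9.70 prior degrees of freedom. The procedure was also run on simulated counts, drawn independently for each library. These do not give its rate of false calls in the real data. CPM is not divided by transcript length, so levels of different genes are not ranked. Log2 CPM for correlations used a prior count of 2. Floors of 3 counts and 95% intervals of count ratios cover counting error only, since PCR reads are not independent molecules. Within each group, the 2 libraries differed beyond counting error (chi-square 17.7 to 37.7 for each degree of freedom). The p-values weigh a difference between groups against a spread between libraries that was estimated from all 4 groups. For each gene, that spread was drawn toward the spread of other genes.

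The 9 genes and the 7 related lists were chosen with earlier results of these data known. The genes named are the 9 in every comparison with siNeg, up to 4 called genes per list with the smallest p (or, with none called, up to 2 as values, of which some are summarised), the 2 closest profiles per gene, and the targeted genes. Nfkbia, Chac1, Ifnar1, Ifitm3, Cxcl10, Rsad2, Bst2, Pml, Daxx and Irf1 were named after their values were seen, as were the genes at 0 counts. Alternatives were other scalings and filters, the replicate number as a block, a fit of only the groups compared, protein-coding genes alone, DESeq2 1.42.0, and leaving out each library or both siTfap4 libraries.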

Additional observations from a re-analysis of the deposited data

How the results depend on the processing

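Leaving out 1 library moved the number of genes called to 504 to 3322 in siTfap4 against siNeg, 401 to 3279 against siWiz and 905 to 4057 against siZic2, with 0 calls throughout in the other 3 comparisons. Over the same refits, 0 to 1, 0 to 1 and 0 to 2 of the 7 tested genes were called in these 3 comparisons. With the single library left in a group, its spread was assumed to be that of the other groups. The compared groups alone gave 1411 calls in siTfap4 against siWiz, beside 2207, and a share of higher calls of 15.7% in siTfap4 against siNeg, beside 26.7%, and leaving out siTfap4 replicate 1 gave a share of 1.19%, leaving out siNeg replicate 1 one of 7.27%. Without a filter, 12 genes were called in siWiz against siNeg and 23 in siWiz against siZic2, and DESeq2 called 1 in siWiz against siNeg. In siTfap4 against siZic2, the 1 gene called, Irf3, became 0 with library totals alone or the compared groups alone. It became 2 with DESeq2, which were Ddx58 and Ifitm1 and not Irf3, and 2 with protein-coding genes alone, Irf3 and Ddx58. Without a filter Ddx58 was called in place of Irf3. The cause of these shifts was not tested.

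With the replicate block, 3243, 3056 and 4391 genes were called in siTfap4 against siNeg, siWiz and siZic2, and 1, 1 and 3 of the 7 genes: Ddx58 against siNeg (adjusted p = 0.0403) and siWiz, and Ddx58 (adjusted p = 0.0139), Irf3 and Ifitm1 (0.0309) against siZic2. The block changed no call in the 3 other comparisons. Deviations of libraries with the same number correlated at -0.04 to 0.33, over 0.1 in 5 of the 6 pairs of groups and not in siTfap4 with siWiz. The labels do not say that a number marks a shared culture or day, so whether the numbers pair the libraries was not settled.

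The signs that changed belonged to estimates near 0 that were not called. With library totals alone the log2 fold change was -0.043 for Eif2ak2 in siTfap4 against siNeg, 0.0069 for Tlr3 in siZic2 against siNeg and -0.038 for Stat2 in siWiz against siZic2. The compared groups alone gave -0.013 for that Eif2ak2 value and -0.024 for Stat2, and no filter gave 0.018 for Tlr3 and -0.033 for Stat2. Stat2 also turned to -0.0038 with RLE factors, -0.0042 with DESeq2 and -0.022 without both siTfap4 libraries. Leaving out 1 library gave ranges of log2 fold change that cross 0 for further uncalled estimates. In siTfap4 against siNeg they were -0.025 to 0.042 for Eif2ak2. In siWiz against siNeg they were -0.22 to 0.10 for Mavs, -0.066 to 0.029 for Irf3, -0.23 to 0.41 for Stat2, -0.31 to 0.31 for Ifitm1. In siZic2 against siNeg they were -0.33 to 0.069 for Ddx58, -0.0085 to 0.28 for Eif2ak2, -0.28 to 0.20 for Tlr3, -0.32 to 0.084 for Irf3, -0.23 to 0.43 for Stat2, -0.41 to 0.19 for Ifitm1. In siTfap4 against siZic2 they were -0.25 to 0.036 for Eif2ak2. In siWiz against siZic2 they were -0.26 to 0.039 for Mavs, -0.12 to 0.16 for Eif2ak2, -0.098 to 0.30 for Irf3, -0.20 to 0.20 for Stat2, -0.078 to 0.28 for Ifitm1. Depth limits Ifih1, Isg15 and Tlr3, with 17, 40 and 71 counts in all.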
